A study of Gallus gallus with 15 samples.

Results

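The matrix proteases and their inhibitors were described here in the breast muscle of Jingyuan hens at 42, 126 and 180 days of age. The genes were chosen by name, with earlier results of these data known. Every gene name of the expression table was taken that starts with MMP, TIMP or ADAM followed by a number, or with ADAMTS. This gave 50 of 23599 gene names, of which 14 were matrix metalloproteinases (MMPs), 3 tissue inhibitors of metalloproteinases (TIMPs), 13 ADAMs, 17 ADAMTS proteases and 3 ADAMTS-like genes. Genes of these families that the table lacks or holds under other names are not covered. MMPs, ADAMs and ADAMTS proteases are zinc endopeptidases of the metzincin clan. MMPs cut collagens, gelatin and other matrix proteins, ADAMs are membrane proteins that shed the outer part of other membrane proteins, and ADAMTS proteases are secreted and process procollagens and the large proteoglycans. TIMPs bind the active site of these enzymes, and muscle remodels its collagenous sheaths with such enzymes while fibres and fat depots grow.

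The study compared hens reared together and fed ad libitum, with 5 birds per age in the RNA data. The paper states more sequenced hens per age than the 5 here. It gives weights for the slaughter groups, not for these 5 birds. They were 0.422 ± 0.03 kg at 42 days (when breeding starts), 1.68 ± 0.14 kg at 126 days (sexual maturity) and 2.03 ± 0.09 kg at 180 days (market age). Polyadenylated RNA of whole breast muscle was sequenced, and expression was given as FPKM, the fragments per length of transcript scaled to the mapped fragments of the library. The labels number a separate bird for each sample and give no treatment or genotype, and their batch field holds the age at slaughter, so age cannot be told apart from the day of slaughter or library preparation. The labels also carry the words myoblast and primary cell, but markers of fast fibres were abundant (6 of 12 found, summing to between 13130 and 33200 FPKM per bird), and fibroblast, endothelial and immune markers were present.

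The FPKM of a bird summed to between 413638 and 481698, and the depth behind these values is unknown. Replicate 1 of the 180-day-old birds and replicate 1 of the 126-day-old birds stood apart. The former was the highest bird of its age in 34 of the 50 genes (68%, against 45.2% of all genes above 0 at that age), and the latter in 30 of 50 (60%, against 42% of all genes). Calls of members that rest on them are given with and without them, and some levels with them only. Replicate 5 at 42 days was unlike its age in another way. It was the lowest bird of its age in 21 of the 48 genes above 0 then, against 15.05% of all genes. Of all genes, 34.5% were highest in it. Its matrix substrates, a list described below, summed to 550.7 FPKM, against 1247 to 1701 in the other 42-day-old birds. A member's value is the sum of all entries of the table with its name, which were 120 entries for the 50 names.

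All 50 genes were above 0 in at least 1 bird and 36 were above 0 in every bird. FPKM is scaled by length, so levels can be set side by side between genes. The most abundant were TIMP2 and MMP15, with means of 67.1 and 65.3 FPKM over the 15 birds, followed by MMP2 (41 FPKM), TIMP3 (27.6 FPKM), ADAM9 (14.2 FPKM), ADAM10 (13.9 FPKM) and ADAMTSL2 (12.5 FPKM). At the other end, 15 genes had a mean under 0.5 FPKM over the 15 birds, among them ADAM12, a protease of regenerating muscle, and MMP13, a collagenase. Summed over the 50 genes, the level was 332 ± 43.9 FPKM at 42 days, 359 ± 180 at 126 days and 290 ± 104 at 180 days (SD, n = 5). Without the replicates 1 named above it was 278 ± 6.77 FPKM at 126 days and 244 ± 22.4 at 180 days (SD, n = 4).

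**Figure D1:**
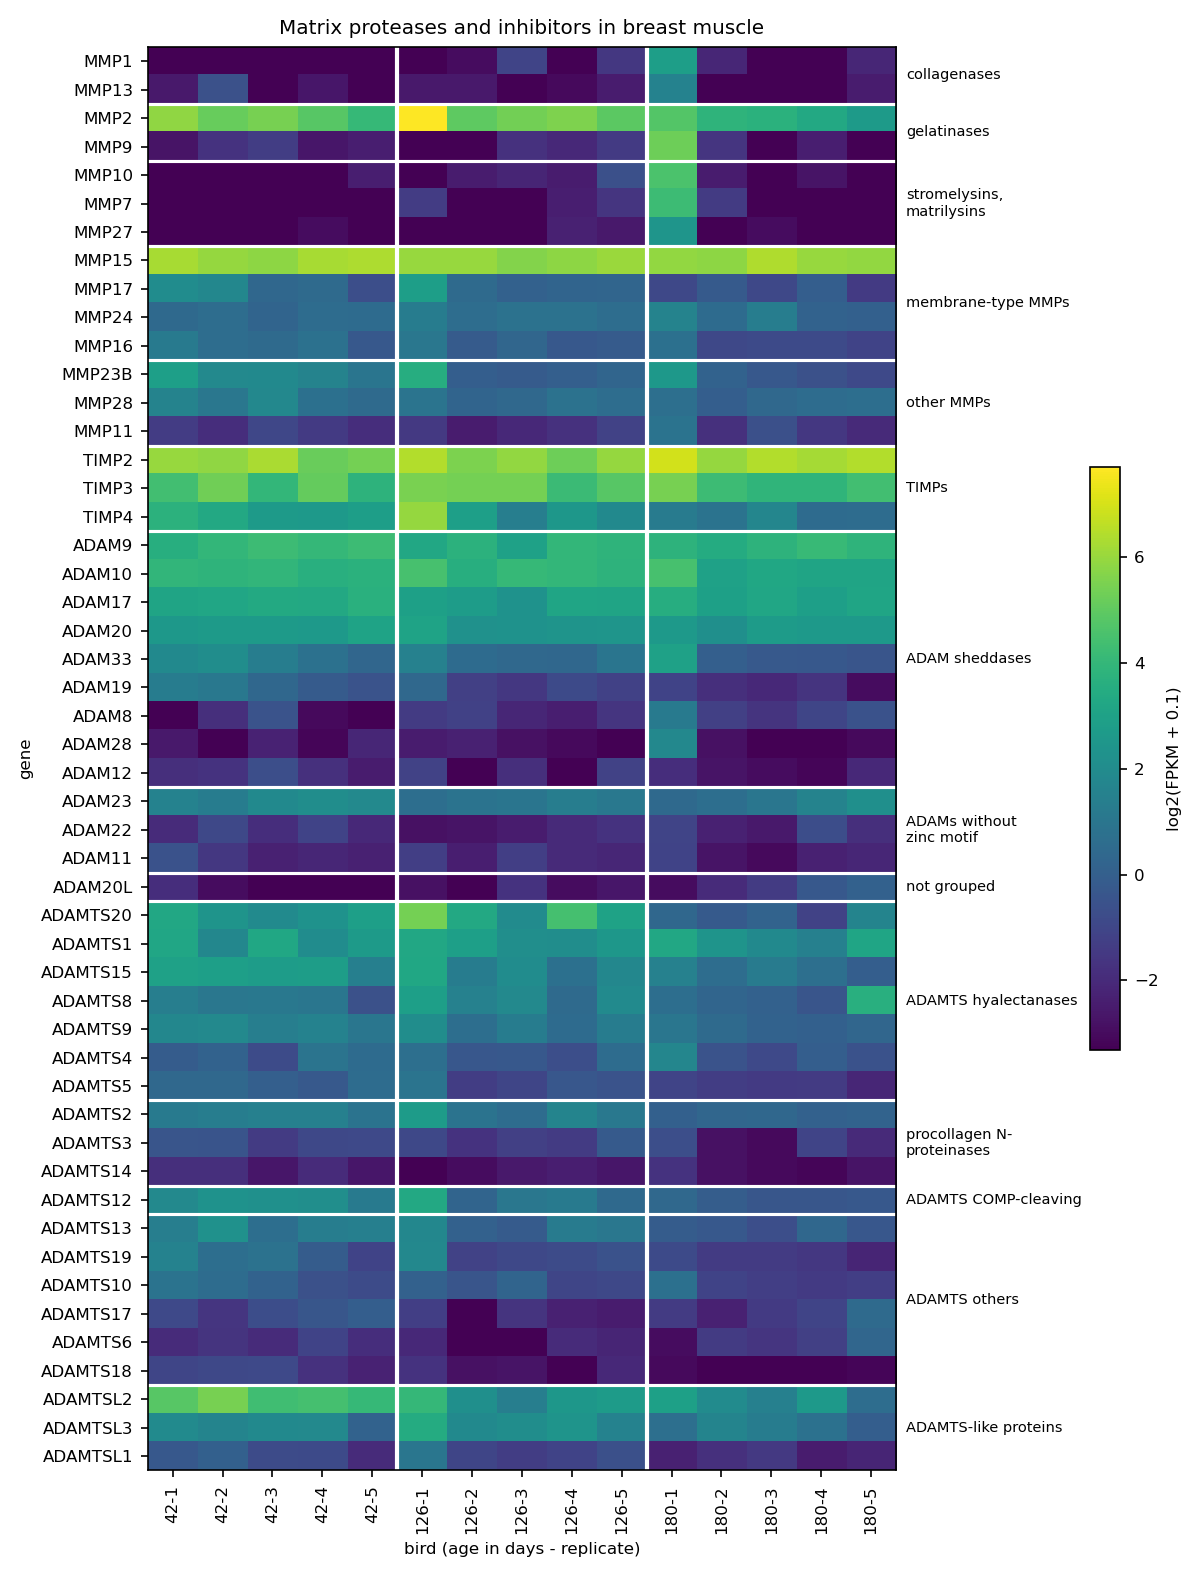
Level of each of the 50 genes (rows, by group) in each of the 15 birds (columns, named by age in days and replicate), as log2(FPKM + 0.1) on the colour scale. MMP15 lay between 50.3 and 83.7 FPKM in every bird, while MMP1, MMP7, MMP9, MMP10, MMP13 and MMP27 reached between 2.87 and 39 FPKM in replicate 1 at 180 days only.

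The ages were compared in pairs to ask which proteases and inhibitors changed as the muscle grew. Each pair was fitted with limma on log2(FPKM + 0.1), using genes whose mean over the 10 birds reached 0.5 FPKM. Fold changes are the later age against the earlier, and a gene was called where its Benjamini-Hochberg adjusted p was under 0.05 and its log2 fold change was 1 or more in size.

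From 42 to 180 days, 10 of the 37 genes tested (of the 50) were lower and none was higher. They were ADAMTS5, ADAMTS9, ADAMTS15 and ADAMTS20, which cleave large proteoglycans, ADAMTS2, ADAMTS12, ADAMTS13, ADAMTSL2, ADAM19 and TIMP4. That was 27% of the genes tested, against 2.46% of all 11692 genes called lower and 0.462% called higher. At an unadjusted p under 0.05, 16 were lower and 1, TIMP2, was higher, together 45.9% of the genes against 17.6% of all genes. The median log2 fold change was −0.62 over the 37 genes and −0.13 over all genes tested. Without replicate 1 at 180 days it was −1.15 over the 32 members still tested and −0.23 over all genes. Those 32 no longer held MMP1, MMP7, MMP9, MMP10 and MMP27, which had positive fold changes, so the 2 medians of members cover different genes. All 180-day-old birds lay below all 42-day-old birds in 8 of the 37 genes (21.6%, against 4.46% of all genes tested). Without replicate 1 at 180 days, 15 of the 32 genes tested were called lower, the 10 and ADAM33, ADAMTS19, MMP2, MMP16 and MMP23B, against 6.8% of all genes called in either direction. MMP1, MMP7, MMP9, MMP10 and MMP27 reached the minimum FPKM through that bird alone. Leaving out single birds gave between 4 and 15 called genes, with 4 left without replicate 2 at 42 days and 13 called without replicate 5 at 42 days. ADAMTS12, ADAMTS20, ADAMTSL2 and TIMP4 were called in each of the 10 fits that left out a bird.

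From 42 to 126 days, only ADAMTSL2 was called lower among the 32 genes tested, which is 3.12%, against 1.92% of all 11482 genes. None was called higher, against 0.549% of all genes, and at an unadjusted p under 0.05 there were 4 lower and 0 higher (12.5%, against 19.6% of all genes). Without replicate 1 at 126 days, 4 of 31 were lower, namely ADAMTSL2, ADAM19, ADAMTS12 and MMP23B, against 3.3% of all genes called in either direction. From 126 to 180 days, only ADAMTS20 was called lower among 35 genes tested, which is 2.86%, against 0.452% of all 11515 genes. None was called higher, against 0.469%, with 11 lower and 1 higher (TIMP2) at an unadjusted p under 0.05 (34.3%, against 15.8% of all genes). Without replicate 1 at 180 days, 2 of 30 were lower, ADAMTS20 and MMP2, against 3.38% of all genes called in either direction. The F-test over all 15 birds called 8 of 35 genes (22.9%, against 6.28% of all 11601 genes), namely ADAM19, ADAMTS5, ADAMTS12, ADAMTS13, ADAMTS15, ADAMTS20, ADAMTSL2 and MMP2. The 3 comparisons share birds, so they are not independent of each other.

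**Figure D2:**
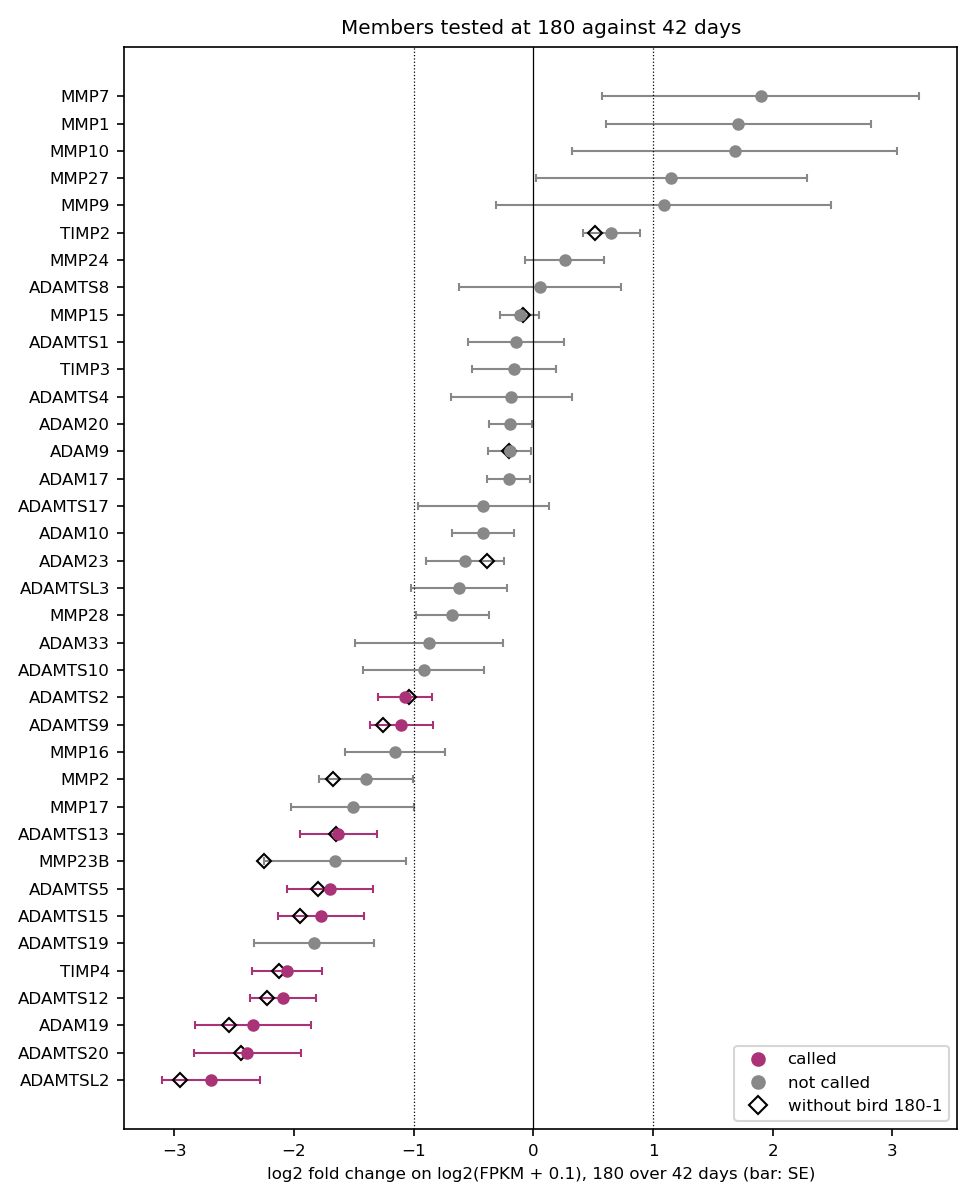
Log2 fold change of the 37 genes tested between 180 and 42 days (dots, with bars of 1 SE), filled in purple where called, and the value without replicate 1 at 180 days (open diamonds, drawn for the genes whose values are given bird by bird). The 10 called genes lay between −1.07 and −2.69, and the genes on the right, MMP1, MMP7, MMP9, MMP10 and MMP27, had the widest bars.

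ADAMTSL2 was the most abundant ADAMTS-like gene and the only member called by 126 days. Its protein has no protease domain and binds fibrillin microfibrils. At 42 days the 5 birds held 28.3, 43.6, 19.9, 22.1 and 16.9 FPKM, at 126 days 15.9, 4.46, 2.56, 5.69 and 6.54 FPKM, and at 180 days 7.72, 3.92, 2.69, 6 and 1.45 FPKM. Every bird at both later ages was below every bird at 42 days, and the later ages overlapped. The level was lower by 126 days (log2 fold change −2.06 ± 0.41 SE, adjusted p = 0.025, limma) and by 180 days (−2.69 ± 0.41 SE, adjusted p = 0.00501, limma). The fall by 126 days was not called without replicates 1, 2 or 4 at 42 days or replicates 2, 3 or 4 at 126 days, where its adjusted p was 0.0643 at most. Over all 10 fits that left out a bird the log2 fold change stayed between −2.42 and −1.77. Between 126 and 180 days the log2 fold change was −0.64 ± 0.51 SE (adjusted p = 0.607, limma).

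The other ADAMTS-like genes were not called. ADAMTSL3 had 3.02 ± 1.15 FPKM at 42 days, 5.33 ± 3.18 at 126 days and 1.9 ± 0.838 at 180 days (SD, n = 5). ADAMTSL1 was under 1 FPKM in all birds but replicate 1 at 126 days (1.94 FPKM), and its 180-day-old birds (0.08 to 0.26 FPKM) lay below its 126-day-old birds (0.30 to 1.94 FPKM).

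The ADAMTS hyalectanases cleave aggrecan, versican and related proteoglycans, and 4 of the 7 were lower at 180 than at 42 days. ADAMTS15 had 7.77, 7.39, 6.72, 7.04 and 2.64 FPKM at 42 days, 9.5, 2.38, 3.97, 1.58 and 3.34 FPKM at 126 days, and 2.75, 1.45, 2.30, 1.51 and 0.88 FPKM at 180 days. Replicate 5 at 42 days lay among the oldest birds, and the log2 fold change from 42 to 180 days was −1.78 ± 0.36 SE (adjusted p = 0.0182, limma). The call was lost without replicate 1, 2 or 4 at 42 days, with an adjusted p of 0.0585 at most.

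ADAMTS5, an aggrecanase of cartilage and muscle, was low throughout. It had 1.22, 1.23, 0.92, 0.74 and 1.39 FPKM at 42 days, 1.82, 0.30, 0.39, 0.70 and 0.61 FPKM at 126 days, and 0.38, 0.30, 0.27, 0.28 and 0.13 FPKM at 180 days. The youngest and oldest birds did not overlap, and the log2 fold change was −1.70 ± 0.36 SE (adjusted p = 0.0221, limma). On such low values the pseudocount sets the size of the fold, which was −0.72 with a pseudocount of 1. The call was also lost without replicate 1 or 2 at 42 days or replicate 3, 4 or 5 at 180 days, with an adjusted p of 0.0824 at most.

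ADAMTS9 had 3.32, 3.51, 2.51, 2.84 and 1.9 FPKM at 42 days, 4.18, 1.48, 2.37, 1.33 and 2.40 FPKM at 126 days, and 1.94, 1.30, 1.00, 0.95 and 1.15 FPKM at 180 days. Replicate 1 at 180 days overlapped with the lowest bird at 42 days. Its fall from 42 to 180 days was the least certain of the 10 (−1.10 ± 0.27 SE, adjusted p = 0.0427, limma), since it was called only without replicate 5 at 42 days or replicate 1 at 180 days among the 10 fits that left out a bird, with an adjusted p of up to 0.124 in the others. The call was also lost with no minimum FPKM (adjusted p = 0.0833), quantile normalization (0.0624), all ages in 1 fit (0.0524) or the main entry alone (0.294). With a pseudocount of 1 the log2 fold change was −0.75, short of the limit.

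The other hyalectanases were not called. ADAMTS1, induced in inflammation in mammals, had 6.48 ± 2.81, 6.23 ± 2.36 and 6.05 ± 3.16 FPKM at 42, 126 and 180 days (SD, n = 5). ADAMTS4, an aggrecanase, had 1.08, 0.974 and 1.14 FPKM on average, and 0.6275 FPKM at 180 days without replicate 1. ADAMTS8 reached 12.3 FPKM in replicate 5 at 180 days, against 0.65 to 1.5 FPKM in the other 4 birds of that age.

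ADAMTS20, known from pigment cell migration in mice, was the only member called from 126 to 180 days with all birds. It had 9.63, 5.08, 3.74, 4.78 and 7.43 FPKM at 42 days, 42.7, 9.93, 3.94, 21.7 and 8.13 FPKM at 126 days, and 1.19, 0.77, 1.03, 0.35 and 3.05 FPKM at 180 days. All 180-day-old birds lay below all birds of both earlier ages, and 126- and 42-day-old birds overlapped. The log2 fold change was −3.48 ± 0.63 SE from 126 to 180 days (adjusted p = 0.0286, limma) and −2.39 ± 0.45 SE from 42 to 180 days (adjusted p = 0.0139, limma). From 42 to 126 days it was 1.09 ± 0.53 SE (adjusted p = 0.275, limma), so a rise before the fall was not called. The call from 126 to 180 days was lost without replicate 2 or 4 at 126 days or replicate 2, 3 or 4 at 180 days, with an adjusted p of 0.0717 at most, and held without both replicates 1 that stood apart (−3.09, adjusted p = 0.024, limma).

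The entries behind ADAMTS20 also changed. Its main entry held 42.5 FPKM in replicate 1 at 126 days and between 3.62 and 21.7 FPKM in the other birds of 42 and 126 days, but at most 0.02 FPKM in replicates 1 to 4 at 180 days. In those 4 birds alone a second entry held 0.35 to 1.17 FPKM, while replicate 5 kept 2.94 FPKM on the main entry. On the main entry alone the log2 fold change from 126 to 180 days was −5.82 (adjusted p = 0.0584, limma), so the size of the fall depends on whether the entries are summed.

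**Figure D3:**
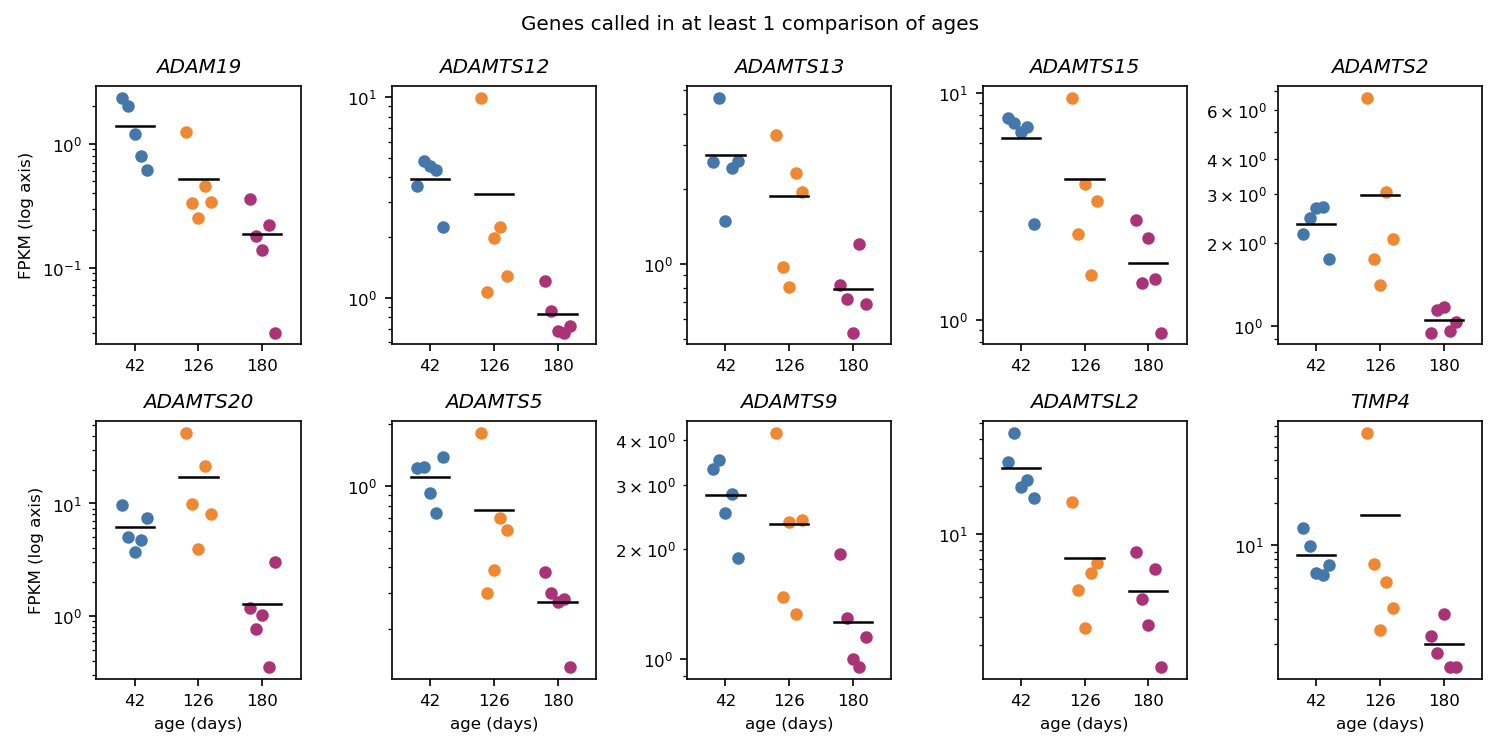
FPKM (log axis) of the 10 genes called in at least 1 comparison, by age in days, with 1 dot per bird and a bar at the mean of 5 birds. ADAMTSL2 was already lower at 126 days, ADAMTS20 was lower at 180 days than at both earlier ages, and replicate 1 at 126 days was the highest bird of its age in each panel.

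ADAMTS2 removes the N-terminal propeptide of fibrillar procollagens and was the only procollagen proteinase above 0.5 FPKM on average. It had 2.15, 2.46, 2.67, 2.68 and 1.74 FPKM at 42 days, 6.63, 1.75, 1.41, 3.03 and 2.06 FPKM at 126 days, and 0.95, 1.14, 1.17, 0.96 and 1.04 FPKM at 180 days. The oldest birds lay in a narrow band below all younger birds. The log2 fold change from 42 to 180 days was −1.07 ± 0.22 SE (adjusted p = 0.0221, limma), close to the limit of 1, and it was called in only 3 of 10 fits that left out a bird, those without replicate 5 at 42 days or replicate 1 or 2 at 180 days (adjusted p of 0.0737 at most in the others). Quantile normalization (adjusted p = 0.143) and all ages in 1 fit (0.0809) also ended the call. So did a pseudocount of 1, with which the log2 fold change was −0.70.

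ADAMTS12, which cleaves cartilage oligomeric matrix protein (COMP) in mammals, had 3.59, 4.83, 4.53, 4.33 and 2.25 FPKM at 42 days. At 126 days it had 9.94, 1.07, 1.98, 2.24 and 1.28 FPKM, and at 180 days 1.21, 0.86, 0.68, 0.67 and 0.72 FPKM. The 42- and 180-day-old birds did not overlap, and at 126 days replicate 1 alone exceeded all birds of 42 days. The log2 fold change from 42 to 180 days was −2.09 ± 0.27 SE (adjusted p = 0.0028, limma). Without replicate 1 at 126 days, ADAMTS12 was also lower at 126 than at 42 days (−1.21, adjusted p = 0.0424, limma), against −0.69 ± 0.50 SE with it (adjusted p = 0.467, limma).

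ADAMTS13 cleaves von Willebrand factor in blood. It had 2.57, 4.66, 1.49, 2.43 and 2.6 FPKM at 42 days, 3.31, 0.97, 0.81, 2.33 and 1.95 FPKM at 126 days, and 0.82, 0.72, 0.53, 1.2 and 0.69 FPKM at 180 days. The oldest birds were all below the youngest (−1.63 ± 0.32 SE, adjusted p = 0.017, limma), and the 126-day-old birds spanned both. Without replicate 2 at 42 days the adjusted p was 0.0549. VWF, the transcript of its substrate, had 17.9, 17.3 and 20 FPKM on average at the 3 ages and was not called.

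ADAM19, a sheddase of neuregulins, reached the lowest level of the 10 genes at 180 days. It had 2.35, 2.03, 1.2, 0.80 and 0.61 FPKM at 42 days, 1.24, 0.33, 0.25, 0.46 and 0.34 FPKM at 126 days, and 0.36, 0.18, 0.14, 0.22 and 0.03 FPKM at 180 days. A second entry, at 0 in all other birds, held the 0.36 FPKM of replicate 1 at 180 days and 1.03 of replicate 2 at 42 days. Youngest and oldest birds did not overlap (−2.34 ± 0.49 SE, adjusted p = 0.0212, limma), and the call was lost without replicate 1, 2 or 3 at 42 days or replicate 3 or 5 at 180 days, with an adjusted p of 0.0824 at most. The log2 fold change was −0.96 with a pseudocount of 1, just short of the limit.

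Of the 3 inhibitors, TIMP4 was called lower and TIMP2 and TIMP3 were not called. TIMP4, which is expressed in heart and muscle of mammals, had 13.4, 9.88, 6.42, 6.14 and 7.24 FPKM at 42 days, 62.9, 7.43, 2.53, 5.54 and 3.62 FPKM at 126 days, and 2.30, 1.72, 3.28, 1.37 and 1.38 FPKM at 180 days. The oldest birds were all below the youngest, and replicate 1 at 126 days was far above all others. The log2 fold change from 42 to 180 days was −2.06 ± 0.30 SE (adjusted p = 0.00411, limma), with an adjusted p of 0.0776 when all 15 birds were fitted together and of 0.115 on its main entry alone. Replicates 4 and 5 at 180 days were at 0 on the main entry and had their 1.37 and 1.38 FPKM on a second entry that held at most 0.23 FPKM elsewhere.

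TIMP2, which both inhibits MMP2 and helps activate it with a membrane-type MMP, had its highest mean at 180 days. It had 63.5, 58.3, 80.1, 35.8 and 42.2 FPKM at 42 days, 86.8, 46.5, 60.1, 39.0 and 61.6 FPKM at 126 days, and 123, 63.2, 85.8, 75.5 and 85.5 FPKM at 180 days. The ages overlapped, and the log2 fold change from 42 to 180 days was 0.65 ± 0.24 SE (adjusted p = 0.172, limma). TIMP3, which is bound to the matrix, had 25.1 ± 11.7, 35.3 ± 11.3 and 22.4 ± 11.9 FPKM at the 3 ages (SD, n = 5). Without replicate 1 at 180 days, TIMP3 had 17.2 ± 2.79 FPKM at that age (SD, n = 4).

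MMP2, the gelatinase that cuts denatured and type IV collagen, was the most abundant secreted MMP among those found. It had 59.6, 35.7, 43.1, 28.5 and 16.7 FPKM at 42 days, 209, 31.7, 40.5, 47.3 and 30.7 FPKM at 126 days, and 27.3, 14.6, 13.1, 10.01 and 6.41 FPKM at 180 days. All 180-day-old birds were below all 126-day-old birds, while replicate 1 at 180 days overlapped with the youngest birds. MMP2 passed the F-test over the 3 ages (adjusted p = 0.0434, limma) but no pair of ages, with −2.03 ± 0.52 SE from 126 to 180 days (adjusted p = 0.0777, limma) and −1.40 ± 0.39 SE from 42 to 180 days (adjusted p = 0.0743, limma). It was called from 42 to 180 days without replicate 5 at 42 days (−1.65, adjusted p = 0.0297, limma). Without replicate 1 at 180 days it was called lower in both comparisons (−2.30, adjusted p = 0.0338, and −1.67, adjusted p = 0.0158, limma).

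The ratio of MMP2 to TIMP2 within each bird was 0.396 to 0.938 at 42 days, 0.498 to 2.41 at 126 days and 0.0749 to 0.230 at 180 days. At 180 days the FPKM of the inhibitor exceeded that of the protease at least 4-fold in every bird, and no bird of an earlier age had a ratio as low. This ratio was formed after the values of both genes were seen and carries no test.

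**Figure D4:**
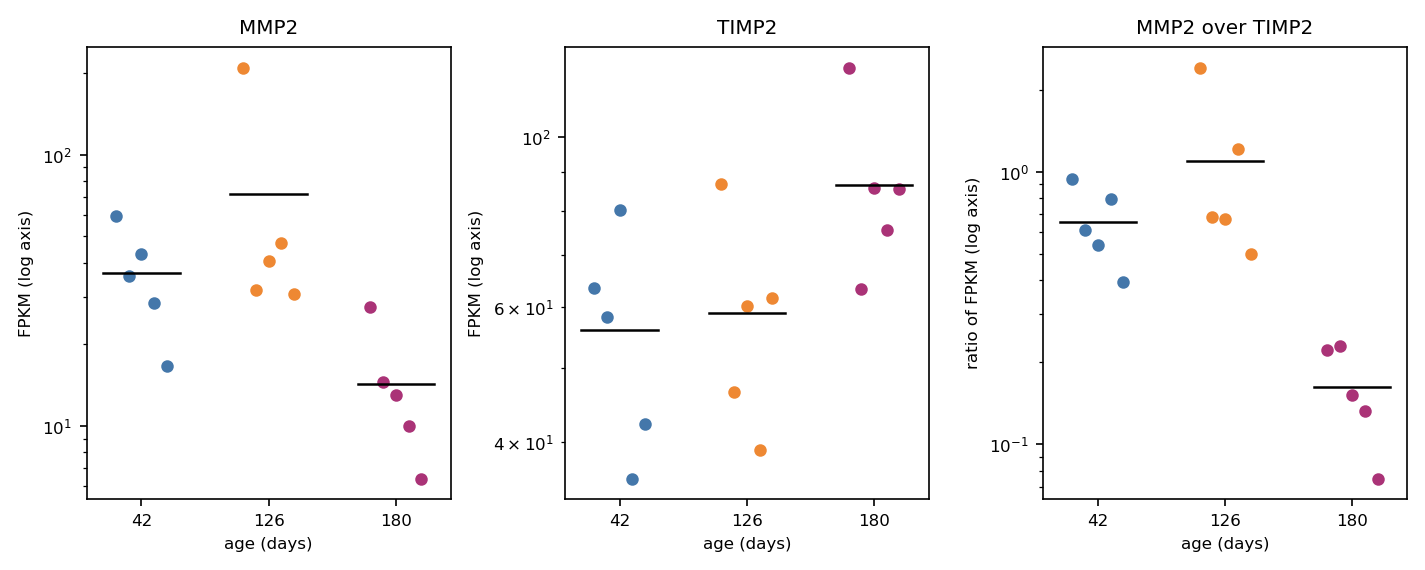
FPKM of MMP2 and TIMP2 and the ratio of the former to the latter (log axes) by age in days, with 1 dot per bird and a bar at the mean of 5 birds. The ratio of the 5 birds at 180 days lay between 0.0749 and 0.230, below the lowest bird of the earlier ages at 0.396.

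The abundant membrane-bound proteases were not called in any comparison. MMP15, a membrane-type MMP, had 76.2, 61.4, 57.8, 75.8 and 81.6 FPKM at 42 days, 65.1, 63.3, 50.3, 56.6 and 65.8 FPKM at 126 days, and 60.0, 57.8, 83.7, 64.5 and 59.8 FPKM at 180 days. The ages overlapped widely, and the log2 fold change from 42 to 180 days was −0.12 ± 0.16 SE (adjusted p = 0.766, limma). MMP15 made up most of the 4 membrane-type MMPs found, as MMP16, MMP17 and MMP24 had means of 1.06, 1.65 and 1.59 FPKM over the 15 birds. The list held 6, and MMP14 and MMP25 were not found by name, so their levels are unknown.

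The main sheddases overlapped between ages. ADAM9, which has many membrane substrates, had 11.8, 15.9, 18.8, 16.0 and 18.9 FPKM at 42 days, 9.67, 13.5, 7.74, 15.7 and 14.2 FPKM at 126 days, and 14.02, 11.1, 14.1, 17.2 and 14.2 FPKM at 180 days. In replicates 1 and 2 at 126 days, 5.48 and 4.37 FPKM of it lay on an entry at 0 in all other birds. ADAM10, which releases Notch fragments, had 14.04 ± 1.26, 16.2 ± 3.93 and 11.4 ± 6.11 FPKM (SD, n = 5). ADAM17, which releases tumour necrosis factor and ligands of the epidermal growth factor receptor, had 10.2 ± 1.64, 7.36 ± 1.66 and 8.86 ± 1.71 FPKM (SD, n = 5). Each of these had a log2 fold change between −0.60 and 0.28 in every comparison. In ADAM10, the 4 birds at 180 days other than replicate 1 held 7.96 to 9.30 FPKM, below all birds of 42 and 126 days (11.97 to 22.4 FPKM), while replicate 1 held 22.3 FPKM.

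ADAM23, an ADAM without protease activity that binds integrins, was the main member of its group. It had 2.89, 2.36, 3.62, 4.18 and 3.51 FPKM at 42 days, 1.49, 1.76, 1.88, 2.46 and 2.03 FPKM at 126 days, and 1.26, 1.48, 1.9, 2.95 and 4.35 FPKM at 180 days. Only replicate 4 at 126 days overlapped with the youngest birds, and the log2 fold change to 126 days was −0.75 ± 0.22 SE (adjusted p = 0.0929, limma). ADAM20L was listed in no group. It had 0.17, 0.03, 0, 0 and 0 FPKM at 42 days, 0.04, 0, 0.21, 0.03 and 0.06 FPKM at 126 days, and 0.03, 0.16, 0.28, 0.72 and 0.99 FPKM at 180 days, where 4 birds exceeded all but 2 of the younger birds. It stayed under the minimum of 0.5 FPKM on average.

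MMP23B, a small membrane-anchored MMP, was the most abundant of the remaining MMPs. It had 7.35, 3.57, 3.65, 2.94 and 1.86 FPKM at 42 days, 11.6, 0.87, 0.80, 0.92 and 1.10 FPKM at 126 days, and 5.83, 1.01, 0.72, 0.57 and 0.44 FPKM at 180 days. Replicate 1 had more than 5 times the level of the next bird at both later ages, and the other 8 older birds were all below the youngest birds. It was not called with all birds (−1.12 ± 0.65 SE to 126 days and −1.66 ± 0.59 SE to 180 days, adjusted p = 0.358 and 0.156, limma). Without replicate 1 of the later age it was called lower in both (−1.83, adjusted p = 0.0189, and −2.25, adjusted p = 0.00528, limma).

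The collagenases MMP1 and MMP13, the stromelysin MMP10, the matrilysin MMP7, MMP27 and the gelatinase MMP9 were at or near 0 in 14 of the 15 birds. Replicate 1 at 180 days held 39.0 FPKM of MMP9, 23.7 of MMP10, 19.0 of MMP7, 7.07 of MMP1, 5.32 of MMP27 and 2.87 of MMP13. The 14 other birds held at most 0.30, 0.54, 0.29, 0.38, 0.10 and 0.56 FPKM of them. The 6 genes summed to 97 FPKM in that bird and to between 0.03 and 1.44 FPKM in the others. MMP1 was at 0 in all birds of 42 days and had 0, 0.03, 0.38, 0 and 0.25 FPKM at 126 days. In replicate 1 at 180 days, 6.64 FPKM of it lay on an entry at 0 in all other birds. MMP10 was above 0 in 1 bird at 42 days (0.09 FPKM) and in 4 at 126 days, at 0.08, 0.12, 0.08 and 0.54 FPKM. None was called, and the 5 tested from 42 to 180 days had log2 fold changes of 1.09 to 1.9, each with an SE above 1.

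**Figure D5:**
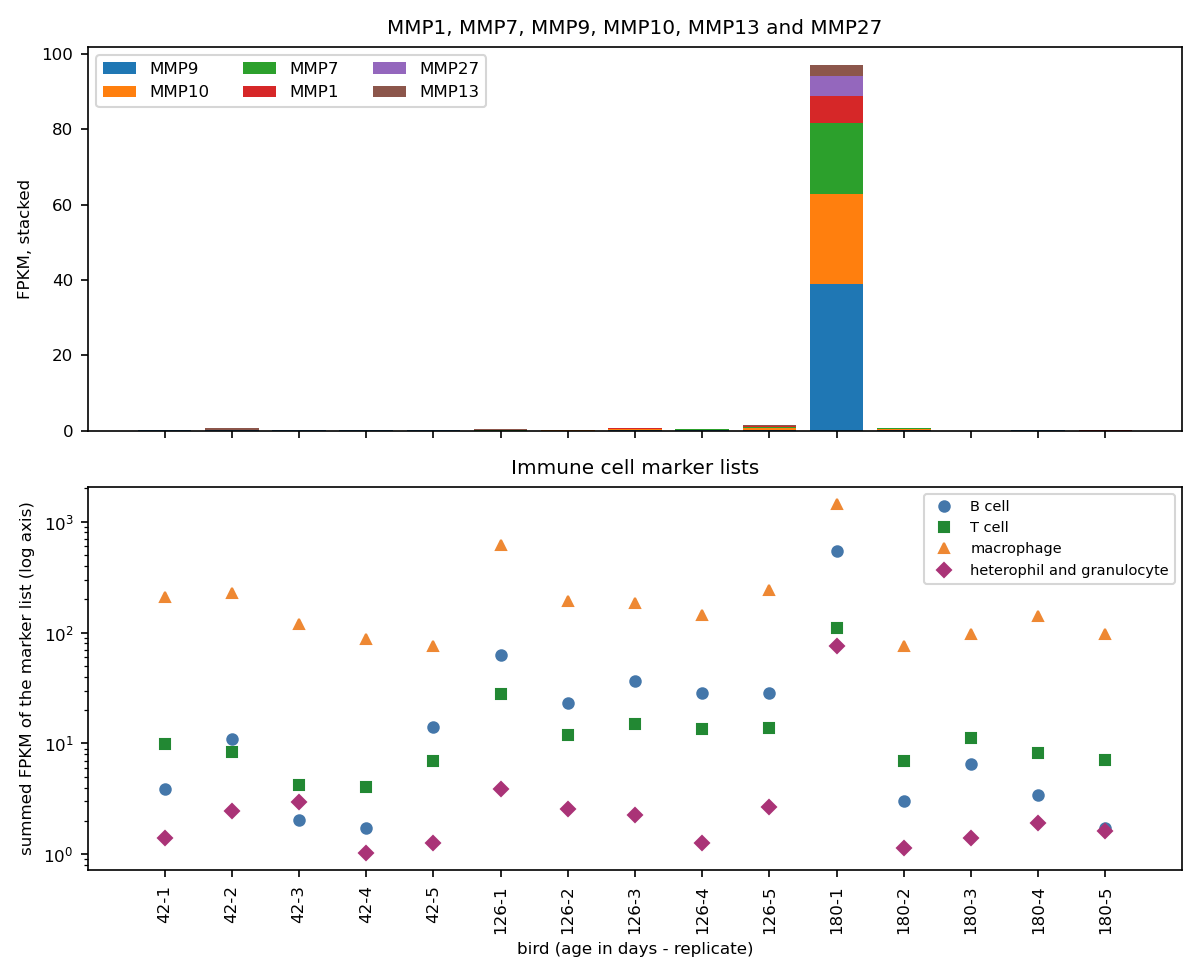
Upper panel, FPKM of MMP1, MMP7, MMP9, MMP10, MMP13 and MMP27 stacked for each of the 15 birds. Lower panel, summed FPKM (log axis) of 4 immune marker lists in the same birds. Replicate 1 at 180 days was the highest bird in both panels, with 97 FPKM of the 6 proteases and 541 FPKM of the B cell list. JCHAIN gave 486.8 FPKM of the latter.

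In replicate 1 at 180 days, immune markers were high together with these proteases. There the B cell list summed to 541 FPKM (1.72 to 62.3 in the other birds), the T cell list to 110 (4.05 to 27.9), the heterophil and granulocyte list to 75.5 (1.03 to 3.85) and the macrophage list to 1441 (75.8 to 618). JCHAIN alone gave 486.8 FPKM of the B cell sum, and CD74 alone 1122 FPKM of the macrophage sum. That bird was the highest of all 15 in 7 of the 7 B cell, 11 of the 11 T cell and 4 of the 4 granulocyte markers found, and in 7 of 11 macrophage markers. The B cell factor PAX5 was at 7.98 FPKM there and at no more than 0.10 in the others. Other lists stood above the rest of its age too. The fibroblast list summed to 235 FPKM (45.4 to 111.1) and the erythrocyte list to 162.6 (25.5 to 79.75). The endothelial list summed to 144.8 FPKM (92.9 to 112.7) and the adipocyte list to 38.35 (21.75 to 29.2). The sums of fast and slow fibre markers were lowest of that age there (20010 and 3196 FPKM). TNNC1 alone gave 2740 FPKM of the slow sum. Of the 9 slow markers found, 1, ATP2A2, was highest of all 15 birds there (10.74 FPKM). Pericyte, satellite cell, cartilage and skin lists lay within the range of the other birds. The same bird was also the highest of the 15 in ADAM8, a leukocyte ADAM (2.2 FPKM), and ADAM28, a lymphocyte ADAM (3.40 FPKM). FN1, the transcript of the matrix protein fibronectin, was at 79.8 FPKM there and between 3.04 and 26.2 FPKM elsewhere. At 126 days, T cell markers were higher as well (11.8 to 27.9 FPKM, against 4.05 to 9.79 at 42 days). Of 8 tested, 4 were called higher, against 0.549% of all genes, and 3 without replicate 1 at 126 days. The B cell list summed to 23.2 to 62.3 FPKM, against 1.74 to 14.1 at 42 days, with 1 of 3 genes tested called higher. JCHAIN alone gave 32.6 FPKM of that list's mean of 35.8 FPKM at 126 days. The 6 proteases summed to 0.18 to 1.44 FPKM at that age. The part of these cells in the protease values was not tested. MMP13, MMP10, MMP1, MMP27 and MMP7 lie within 6 protein-coding genes of each other on chromosome 1 in the order of the RefSeq annotation (GRCg7b), and MMP9 lies on chromosome 20.

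Replicate 1 at 126 days was high in another set. It was the highest of the 15 birds in, among others, MMP2, MMP17, MMP23B, TIMP4, ADAMTS2, ADAMTS9, ADAMTS12, ADAMTS15, ADAMTS19, ADAMTS20 and ADAMTSL3. MMP1, MMP7, MMP9, MMP10, MMP13 and MMP27 summed to 0.36 FPKM in it. Fibroblast markers summed to 1357 FPKM in it, against 211 to 352 FPKM in the other birds of its age, and 7 of the 10 found were highest there. DCN, decorin, alone gave 544.6 FPKM of that sum. Other lists were also higher in it than in the rest of its age, with 618 FPKM of macrophage (144.6 to 241.6), 280.1 of erythrocyte (31.2 to 51.4), 194 of endothelial (90.8 to 126), 62.3 of B cell (23.2 to 36.6) and 27.9 of T cell markers (11.8 to 15.1). Their part in its protease values was not tested.

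Markers of fibroblasts, which make much of the matrix, were lower beside the proteases. In bulk muscle, fewer cells of a type and less RNA per cell cannot be told apart. The fibroblast list (10 of 11 found, TCF21 at or near 0 in all birds) summed to between 253 and 849 FPKM at 42 days, 211 and 1357 at 126 days, and 45.4 and 235 at 180 days. Of its 9 genes tested between 180 and 42 days, 5 were called lower, with a median log2 fold change of −2.19, and 8 were lower at an unadjusted p under 0.05. Without replicate 1 at 180 days, 7 were called lower. Of all genes, 2.46% were called lower with all birds, and 6.8% in either direction without that bird. An unadjusted p under 0.05 was found in 17.6% of all genes with all birds. The endothelial list had 0 of 8 genes called in the same comparison by limma, and 0 at an unadjusted p under 0.05, with a median of 0.03. Satellite cell and myoblast markers had a median of −1.20, with 1 of 7 called lower and 4 lower at an unadjusted p under 0.05. Skin and melanocyte markers had a median of −1.75, with 0 of 5 called by limma and 2 lower at an unadjusted p under 0.05. Of 10 macrophage markers tested with all birds, 0 were called by limma and 0 had an unadjusted p under 0.05, with a median of −0.47. Without replicate 1 at 180 days, 2 of 9 macrophage markers were lower, with a median of −1.36. The part of any of these cells in the fall of the proteases was not tested.

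Matrix substrates of these enzymes were lower as well, and COL1A1, COL1A2, COL3A1 and DCN stand in both this list and the fibroblast list. Of 25 matrix substrates tested between 180 and 42 days, 14 were lower and 0 higher, with a median log2 fold change of −1.67 against −0.13 over all genes (17 of 24 lower without replicate 1 at 180 days). Of all genes, 2.46% were called lower, and 6.8% in either direction without that bird. COL3A1 went from 298 to 32 FPKM (−3.35 ± 0.41 SE, adjusted p = 0.0021, limma), COL1A2 from 86 to 11.6 FPKM (−3.0 ± 0.44 SE, adjusted p = 0.00501, limma) and ELN, elastin, from 11.7 to 1.59 FPKM (−2.75 ± 0.39 SE, adjusted p = 0.0039, limma). The others that were lower were COL1A1, COL4A1, COL4A2, COL5A1, COL5A2, BGN, FBN1, LTBP1, NID1, HSPG2 and SPARC, with log2 fold changes from −2.79 (COL1A1) to −1.28 (HSPG2). The hyalectan substrates were low, with ACAN, aggrecan, at 0.012 FPKM or less and VCAN, versican, 0.694, 0.96 and 0.43 FPKM on average at the 3 ages.

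Some substrates were also called in the comparisons with 126 days. ELN was already lower at 126 days (−1.78 ± 0.35 SE, adjusted p = 0.0243, limma). TNC, tenascin C, rose from 1.57 FPKM at 42 days to 17.4 at 126 days (3.89 ± 0.69 SE, adjusted p = 0.0168, limma) and fell to 2.82 at 180 days (−2.62 ± 0.51 SE, adjusted p = 0.036, limma), and THBS1, thrombospondin, rose from 5.09 to 16.1 and fell to 5.08 FPKM. COMP fell from 85.3 FPKM at 126 days to 15 at 180 days (−2.26 ± 0.38 SE, adjusted p = 0.0237, limma), as did COL4A1, LTBP2 and SPARC, which makes 6 of 25 substrates lower in that comparison (12 of 24 without both replicates 1). Of all genes, 0.452% were called lower there, and 3.06% in either direction without both birds. Replicate 1 at 126 days held 167.9 FPKM of COMP, against at most 114.1 in any other bird.

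Of 18 other regulators of matrix proteolysis tested between 180 and 42 days, 1 was lower, PCSK6, a proprotein convertase, at 0.386 against 1.53 FPKM (−1.69 ± 0.40 SE, adjusted p = 0.0382, limma), and 7 of 17 were lower without replicate 1 at 180 days. FURIN, the convertase that activates many ADAMs, ADAMTS proteases and membrane-type MMPs, had 30.5, 27.2 and 30.9 FPKM on average, and BSG, an inducer of MMPs, had 89.2, 106 and 98.6 FPKM. RECK, a membrane inhibitor of MMPs, had means of 3.00, 2.89 and 1.46 FPKM. None of the list was called by limma from 42 to 126 or from 126 to 180 days, where 1 and 5 had an unadjusted p under 0.05. Of all genes tested, 19.6% and 15.8% had such a p in these comparisons. From 42 to 180 days, 2.46% of all genes were called lower, and 6.8% in either direction without replicate 1 at 180 days.

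Among partners and substrates of ADAM10 and ADAM17, 1 of 14 tested was lower at 180 than at 42 days, EGFR, the receptor of the ligands that ADAM17 releases, at 1.85 against 3.90 FPKM (−1.07 ± 0.24 SE, adjusted p = 0.0294, limma). It was 3 of 14 without replicate 1 at 180 days. NOTCH1 had means of 2.47, 2.41 and 2.15 FPKM and RHBDF1, a carrier of ADAM17, 10.7, 6.11 and 8.48 FPKM. None was called by limma in the other comparisons, where 3 and 3 had an unadjusted p under 0.05. Of all genes tested there, 19.6% from 42 to 126 days and 15.8% from 126 to 180 days had such a p.

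Genes under the minimum of 0.5 FPKM were compared by exact permutation tests on FPKM, for which the smallest p with 5 against 5 birds is 0.00794. ADAMTS18 had 0.314 ± 0.150 FPKM at 42 days and 0.006 ± 0.00894 at 180 days (SD, n = 5, exact permutation p = 0.00794, adjusted p = 0.103 over 13 tests). ADAMTSL1 also had the smallest possible p from 126 to 180 days (exact permutation p = 0.00794, adjusted p = 0.119 over 15 tests). In both, all birds of the later age lay below all birds of the earlier. Over this many tests, a gene at the smallest p cannot pass unless other genes reach it too. The adjusted values thus cannot decide whether these genes changed. From 42 to 126 days the adjusted p was at least 0.214 (18 tests, exact permutation), with the same limit.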

How the data were processed

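Polyadenylated RNA from breast muscle of 15 hens, 5 per age, was sequenced as paired-end reads. The authors trimmed reads with Cutadapt, checked them with FastQC and mapped them with HISAT2 2.2.1 (version from the submitters' processing notes, which also name StringTie 2.1.6), and deposited FPKM with 2 decimals. The genome build is not given in the sources used here, so no positions are printed. FPKM hold no counts, so that depth and counting error are unknown.

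Entries under the same gene name were added up. limma 3.58.1 (R 4.3.3) with a trend was fitted to log2(FPKM + 0.1) of the 10 birds of each pair of ages, where the gene's mean reached 0.5 FPKM. The fold change understates that of low genes. A moderated F-test used all 15 birds, and p-values were adjusted over all genes tested (Benjamini-Hochberg). It took the place of the authors' DESeq2 since FPKM are not counts. Members below the minimum had two-sided exact permutation tests in Python 3.11.15 with scipy 1.17.1. The spread between birds is that of 5 hens per age. Replicate numbers mark different hens at each age and were not taken to pair them, since the correlation of deviations was not over 0.1 in every pair of any comparison (−0.128 to 0.32). From 126 to 180 days it was 0.32, 0.106, −0.023, 0.225 and 0.109 for replicates 1 to 5. Results of the fit with the replicate block are given below.

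Values are given bird by bird for members called in a comparison and for the most abundant member of each group. MMP9, MMP7, MMP13, MMP27, ADAM28, ADAM8, ADAM10, ADAM17, TIMP3, ADAMTS8, ADAM33 and the genes named without bird values were added after their values were seen. The members, lists and tests were chosen with earlier results of these data known. Alternatives were a pseudocount of 1, no minimum or 1 FPKM, FPKM rescaled to 1000000, quantile normalization, all ages in 1 fit, the replicate block, the highest entry alone, adjusted p alone and each bird left out. Leaving out both replicates 1 that stood apart was chosen after seeing the data. Of 200 genes simulated with a change of 2 on the log2 scale, limma recovered 77%, 85% and 74% from 42 to 126, 42 to 180 and 126 to 180 days, with 8, 8 and 5 others called.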

Additional observations from a re-analysis of the deposited data

Results flagged for a closer look

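For each of the 50 members the highest and the lowest bird of each age were set against the spread of the 5 birds. Of 148 groups with a value above 0, 43 held a bird set apart by more than 0.71 of the range. For normal values chance gives about 1 in 20. That rate is no strict measure here, since FPKM were taken without a log scale and the groups share the same birds. Low genes with many values at or near 0 pass this limit easily.

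Replicate 1 at 180 days was that bird 17 times. It held 39.0 FPKM of MMP9, 23.7 of MMP10, 19.0 of MMP7, 7.07 of MMP1, 5.32 of MMP27, 2.87 of MMP13, 1.72 of MMP11 and 1.59 of MMP16. It also held 22.3 FPKM of ADAM10 (next bird 9.30), 3.40 of ADAM28 (next 0.04), 7.76 of ADAM33 (next 0.91), 2.2 of ADAM8 (next 0.59), 5.83 of MMP23B (next 1.01) and 43.1 of TIMP3 (next 20.5). ADAMTS4 was at 3.21 FPKM (next 0.89), ADAMTS10 at 1.56 (next 0.36) and ADAMTS14 at 0.21 (next 0.05).

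Replicate 1 at 126 days was set apart 12 times, with 209 FPKM of MMP2 (next 47.3), 62.9 of TIMP4 (next 7.43), 11.6 of MMP23B (next 1.10), 9.94 of ADAMTS12 (next 2.24), 1.82 of ADAMTS5 (next 0.70) and 1.24 of ADAM19 (next 0.46). The others were 10.8 FPKM of ADAMTSL3 (next 5.1), 8.34 of ADAM20 (next 5.22), 7.08 of MMP17 (next 1.32), 3.41 of ADAMTS19 (next 0.59), 2.35 of MMP24 (next 1.69) and 1.94 of ADAMTSL1 (next 0.54).

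Replicate 5 at 180 days held 12.3 FPKM of ADAMTS8 (next 1.5), 1.32 of ADAMTS17 (next 0.38) and 1.16 of ADAMTS6 (next 0.33), and replicate 3 held 83.7 of MMP15 (next 64.5). Replicate 5 at 42 days was lowest in ADAMTS15 at 2.64 FPKM (next 6.72) and ADAMTSL3 at 1.02 (next 3.04) and highest in ADAM20 at 8.35 (next 6.43) and MMP10 at 0.09. The remaining values were low, with ADAM20L at 0.17 FPKM in replicate 1, MMP13 at 0.56 in replicate 2, ADAMTS6 at 0.37 and MMP27 at 0.03 in replicate 4 at 42 days, and ADAM20L at 0.21 in replicate 3 and MMP10 at 0.54 in replicate 5 at 126 days.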

How the results depend on the processing

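With all birds the members called were 1, 10 and 1 from 42 to 126, 42 to 180 and 126 to 180 days and 8 by F-test, of 283, 342, 106 and 729 genes in all. No called fold change turned its sign. With a pseudocount of 1, 6 members were called from 42 to 180 days and 3 by F-test, and 186 genes from 42 to 126 days. Without a minimum FPKM there were 0 members from 126 to 180 days and 4 by F-test, and 169 genes from 42 to 126 and 53 from 126 to 180 days. On the highest entry alone there were 0 members from 42 to 126 days, 0 from 126 to 180 days and 4 by F-test, and 51, 172, 20 and 283 genes. With the replicate block there were 2 members from 126 to 180 days (ADAMTS20 and MMP2, adjusted p = 0.014 for MMP2) and 13 by F-test, and 270 genes from 126 to 180 days, and from 42 to 180 days MMP2 (0.00585) and MMP23B (0.0393) gained a call and ADAMTS2 (0.0745), ADAMTS5 (0.0772) and ADAMTS9 (0.0678) lost it. Without both replicates 1 there were 2 members and 336 genes from 126 to 180 days, and 16 members and 1681 genes by F-test. Leaving out single birds gave 0 to 4, 4 to 15 and 0 to 2 members in the pairs and 2 to 12 by F-test, and 77 to 375, 176 to 770, 15 to 378 and 389 to 1280 genes. The causes were not tested. Quantile normalization brought the median over all genes from −0.15 to −0.01 and from −0.13 to 0.00 (log2) in the comparisons with 42 days, and the members' median to −0.16 and −0.47. Summed entries can hide a switch between entries, and depth limits low genes by an amount that FPKM do not show.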
